A study of Mus musculus with 4 samples.

Results

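The growth hormone receptor, STAT5 and IGF axis was followed in mouse liver through 10 genes, chosen by name from the 35739 genes of a table of transcript abundances. They are the receptor *Ghr*, the signal transducers *Stat5a* and *Stat5b*, the feedback genes *Socs2* and *Cish*, the repressor *Bcl6*, and the hormone *Igf1* with its carriers *Igfals*, *Igfbp2* and *Igfbp4*. RNA-seq was carried out on livers of wild-type (WT) mice, replicates 2 and 3, and of *Usp21* knockout (KO) mice, replicates 1 and 3, with 1 library per replicate. The study used littermates of 10 to 11 weeks, kept on a normal diet under 12 h of light and 12 h of darkness, on a mixed background of B6 and 129/Sv. The KO allele lacks exons 3 and 4 of *Usp21*, which encodes a ubiquitin protease, and is constitutive, so that every tissue that sends or receives growth hormone carries it. The labels gave neither the sex of the mice nor the time of day of collection, and named no batch.

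Growth hormone from the pituitary binds its receptor on hepatocytes, and the kinase JAK2 on the receptor then phosphorylates STAT5A and STAT5B, which enter the nucleus and switch on genes. Liver IGF1, the main source of circulating IGF1, is one of these products, and it travels in blood bound to IGF-binding proteins, in part in a complex with the acid-labile subunit encoded by *Igfals*. *Socs2* and *Cish* are rapid STAT5 targets whose proteins dampen the signal. BCL6 is a repressor whose binding sequence overlaps that of STAT5, and in liver it occupies many of the same regions. In rodents the hormone is secreted in pulses, in a pattern that differs between males and females, so the levels of the rapid targets can vary from hour to hour in an animal.

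STAT5 binds the palindrome TTCNNNGAA, and TTCCTNGAA is a form of it that BCL6 also binds. The promoters of the members (250 bases before to 50 bases after each start site, RefSeq, GRCm38.p6) were searched for both on either strand. The first motif reads the same on both strands, and the second is a subset of the first. Entries were found for 9 of the 10 members, 16 promoters in all, and there was none for *Socs2*. TTCNNNGAA was present in 5 of the 16 (31.3%), in *Cish*, *Igfals* and *Bcl6*, compared with 8.30% of all 32851 promoters. TTCCTNGAA was present in 3 of the 16, compared with 1.59% of all promoters, and 2 of the 16 held at least 2 motifs, compared with 0.457%. The windows of 30 bases around every match in the members' promoters are shown. They are written 5′ to 3′ on the strand of the gene with the motifs in capitals.

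Cish, chr9:107296654-107296683, + strand: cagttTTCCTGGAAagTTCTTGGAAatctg

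Bcl6, chr16:23988951-23988980, - strand: agcaaattagTTCTCAGAAttccagaggcc

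Bcl6, chr16:23981432-23981461, - strand: aggccgcggcTTCCTGGAAagttacttctc

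Bcl6, chr16:23981386-23981415, - strand: ggcaggagtgTTCTGTGAAatccttagagc

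Bcl6, chr16:23981352-23981381, - strand: atcgactacgTTCCGGGAAtgagagggctg

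Igfals, chr17:24877598-24877627, + strand: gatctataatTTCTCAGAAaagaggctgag

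Igfals, chr17:24878163-24878192, + strand: ctgccaggtgTTCCTAGAAgaggccctggg

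The *Cish* window holds a pair of motifs that begin at bases 1 and 12 of the RefSeq transcript, and GENCODE M21 places it at the untranslated part of an exon. The first *Bcl6* window lies 99 bases outside the gene, and its motif begins at position -118 from a start site. The other *Bcl6* windows and both *Igfals* windows lie in introns, before RefSeq start sites inside these genes. Their motifs begin at positions -168, -122 and -88 in *Bcl6*, and at -236 and -58 in *Igfals*. The 3 *Bcl6* windows in introns come from a single promoter entry, and no GENCODE M21 transcript of *Bcl6* holds its first transcribed bases. That entry is among those counted with TTCNNNGAA, with TTCCTNGAA and with at least 2 motifs. The matches were read from the reference genome, and binding was not measured in these livers.

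None of the 10 members passed the test for a difference between KO and WT livers. The unit is TPM, an abundance corrected for transcript length and scaled to the same total in every library. Differences were tested on log2(TPM + 1) with limma across 9581 genes, those whose mean reached 1 TPM, and a log2 fold change is KO minus WT on that scale. With Benjamini-Hochberg adjusted p under 0.05, 0 of 10 members were called, beside 8 of all tested genes (0.0835%). With unadjusted p under 0.05, 0 members were called, beside 10.5% of all tested genes, and 0 differed by at least 2-fold, beside 3.68%. The KO libraries did not overlap the WT libraries for 5 members. *Ghr*, *Stat5a*, *Stat5b* and *Igf1* were higher in both KO libraries, as were 34.4% of all tested genes, and *Igfbp4* was lower in both, as were 10.9%. The members' median log2 fold change was 0.32, compared with 0.15 over all tested genes, and 7 of 10 members were above 0, compared with 66.7% of all tested genes.

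**Figure D1:**
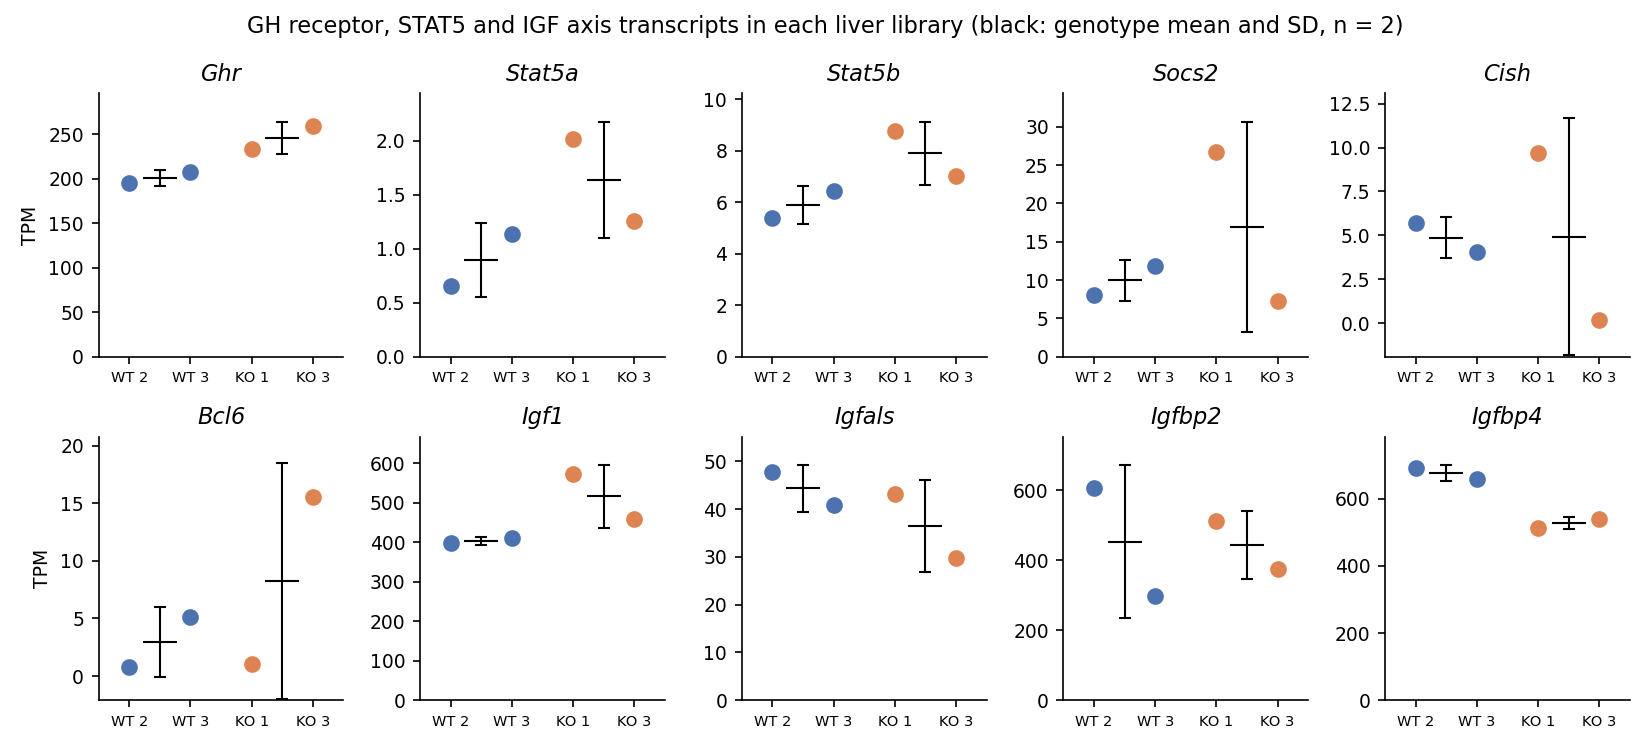
Level of each member (TPM, linear axis) in WT replicates 2 and 3 (blue) and *Usp21* KO replicates 1 and 3 (orange), with the mean and SD of each genotype in black (n = 2). *Ghr* and *Igf1* lay higher and *Igfbp4* lay lower in both KO livers, whereas *Socs2*, *Cish* and *Bcl6* differed most between the KO livers themselves.

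A small change cannot be detected with 2 libraries per genotype. In simulated data of the same size, limma recovered 0% of changes of 1 on the log2 scale and 68.5% of changes of 3. It also made 8 false calls in the run with changes of 3. The observed spreads were shuffled between genes there, so these rates do not describe the spread of any single member. An exact permutation test of 2 against 2 libraries cannot give a two-sided p below 0.333. Each limma p-value sets a difference against a spread that was estimated from these libraries only and largely pooled over genes. In whole liver, fewer cells of a type and less RNA per cell cannot be told apart.

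*Ghr* (ENSMUSG00000055737, chr15:3317760-3583492, - strand in GENCODE M21, GRCm38), the gene of the receptor, had a level of 195 TPM in WT replicate 2 and 207 TPM in WT replicate 3, with 233 TPM in KO replicate 1 and 259 TPM in KO replicate 3. The WT mean was 201 ± 8.73 TPM and the KO mean 246 ± 17.9 TPM (SD, n = 2), and the groups did not overlap. Its log2 fold change was 0.29 (SE 0.163, limma adjusted p = 0.537), with a 95% interval from -0.12 to 0.70. With the libraries scaled to an equal upper quartile, the value was 0.16 and the groups overlapped.

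*Stat5a* and *Stat5b* are neighbouring genes on chromosome 11 (chr11:100859351-100885169, + strand, and chr11:100780731-100850724, - strand) whose proteins carry the signal to DNA, and STAT5B is the main form in liver. *Stat5b* stood at 5.37 and 6.42 TPM in WT and at 8.76 and 7.01 TPM in KO livers. *Stat5a* stood at 0.652 and 1.14 TPM in WT and at 2.02 and 1.26 TPM in KO livers. For both genes the KO libraries lay above the WT libraries, and KO replicate 1 was the highest.

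The log2 fold change was 0.36 for *Stat5b* (SE 0.234, limma adjusted p = 0.579, 95% interval -0.22 to 0.95) and 0.47 for *Stat5a* (SE 0.305, limma adjusted p = 0.579, 95% interval -0.29 to 1.23). *Stat5a* passed the filter of 1 TPM through its KO libraries, since its WT mean was 0.895 ± 0.343 TPM (SD, n = 2). *Stat5b* exceeded *Stat5a* in every library, by 8.23 and 5.64 times in WT and by 4.34 and 5.58 times in KO livers. Reads from sequence common to both genes had to be divided between them, and the part of this step in the ratio was not tested. In the reference, 15.1% of the 31-base stretches of *Stat5b* transcripts also occur in *Stat5a* transcripts, and 11.5% of those of *Stat5a* occur in *Stat5b*.

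*Cish* (ENSMUSG00000032578, chr9:107296026-107302784, + strand), which encodes an inhibitor that STAT5 induces, spanned the widest range of any member in fold terms. Its level was 5.69 and 4.05 TPM in WT livers, 9.70 TPM in KO replicate 1 and 0.168 TPM in KO replicate 3. The 2 KO livers thus held both the highest and the lowest value, with the WT livers between them. They were 57.8-fold apart in TPM, compared with 1.40-fold for the WT livers.

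On the log2(TPM + 1) scale the gap between the KO livers was 3.20, and only 32 of the 9581 tested genes (0.334%) had a larger one. Between genotypes the log2 fold change was -0.72 (SE 0.988, limma adjusted p = 0.794), and its 95% interval from -3.18 to 1.74 covers large changes in both directions. Without KO replicate 3 the value was 0.88, and without KO replicate 1 it was -2.32, each with only 1 KO library left. From the size of the smallest TPM steps, the 4 values correspond to about 84, 45, 135 and 2 reads, in the order WT 2, WT 3, KO 1 and KO 3. The exact Poisson 95% interval was 113 to 160 reads for KO replicate 1 and 0.242 to 7.22 reads for KO replicate 3, and these intervals cover counting error only.

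*Socs2* (ENSMUSG00000020027, chr10:95385362-95417180, - strand) encodes another inhibitor of the receptor's signal. It stood at 8.09 and 11.9 TPM in WT livers, at 26.6 TPM in KO replicate 1 and at 7.24 TPM in KO replicate 3. As for *Cish*, KO replicate 1 was the highest library and KO replicate 3 the lowest. The KO livers were 3.68-fold apart, and 1.41% of tested genes had a larger gap between them on the log2 scale. Its log2 fold change was 0.48 (SE 0.574, limma adjusted p = 0.762, 95% interval -0.95 to 1.91). It was -0.39 without KO replicate 1 and 1.35 without KO replicate 3, each with only 1 KO library left. The pseudogene *Gm9847* is the main gene with which *Socs2* shares sequence, and 6.18% of its 31-base stretches occur in other genes.

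*Bcl6* (ENSMUSG00000022508, chr16:23965052-23988852, - strand), the gene of the repressor, took the opposite order in the KO livers. It was measured at 0.819 and 5.12 TPM in WT livers, at 1.01 TPM in KO replicate 1 and at 15.5 TPM in KO replicate 3. Each genotype thus had a low library, at about 1 TPM, and a higher one. The KO livers were 15.3-fold apart, a gap that 40 tested genes (0.417%) exceeded on the log2 scale, and the WT livers were 6.25-fold apart, a gap that 1.27% of tested genes exceeded.

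Between genotypes, *Bcl6* had a log2 fold change of 0.79 (SE 1.07, limma adjusted p = 0.792, 95% interval -1.88 to 3.45). It was -0.73 without KO replicate 3, -0.09 without WT replicate 2, 1.66 without WT replicate 3 and 2.31 without KO replicate 1. The 4 values correspond to about 15, 72, 18 and 214 reads in the order above, with intervals of 10.7 to 28.4 reads for KO replicate 1 and 186 to 245 reads for KO replicate 3. The spread of *Bcl6* within genotypes was larger than that of all but 0.564% of tested genes, and that of *Cish* larger than all but 0.668%.

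**Figure D2:**
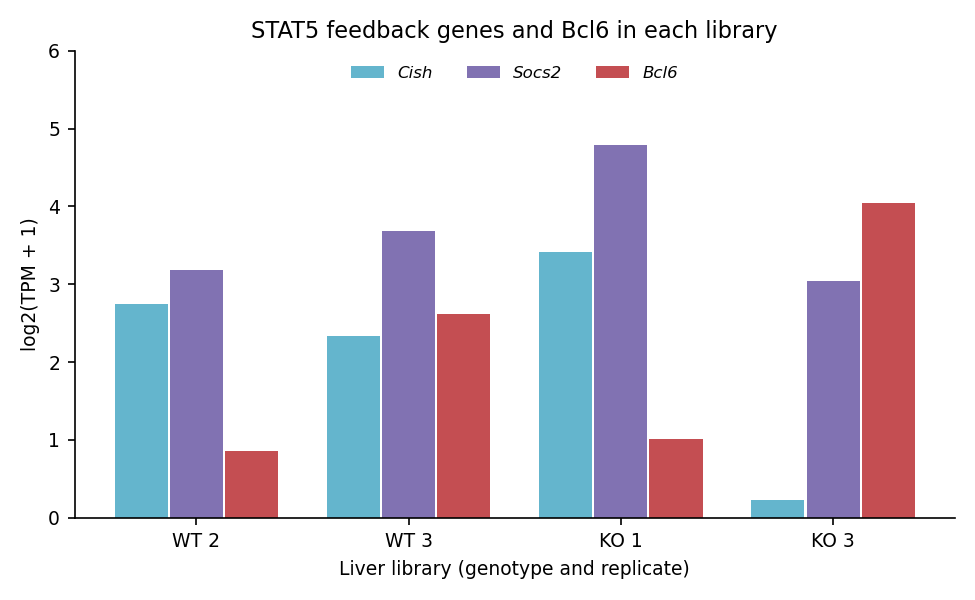
log2(TPM + 1) of *Cish*, *Socs2* and *Bcl6* in each of the 4 liver libraries, with bars from 0. *Cish* and *Socs2* were highest in KO replicate 1 and lowest in KO replicate 3, where *Bcl6* was highest.

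The repressor and the feedback genes were also compared in each animal. *Cish*, *Bcl6* and *Socs2* had the largest gaps between the KO livers among the 10 members. Ratios between them therefore restate these gaps and are not separate evidence. The TPM of *Bcl6* was 0.144 times that of *Cish* in WT replicate 2 and 1.26 times in WT replicate 3. It was 0.104 times in KO replicate 1 and 92.6 times in KO replicate 3. The last ratio divides by a *Cish* level of 0.168 TPM, so its size is uncertain. That level is about 2 reads, with an exact Poisson interval of 0.242 to 7.22 reads. Against *Socs2*, the log2(TPM + 1) of *Bcl6* was lower by 2.32, 1.07 and 3.78 in the first 3 libraries and higher by 1.00 in KO replicate 3. The WT livers did not show the same opposition in *Socs2*: WT replicate 3 had more *Bcl6* and less *Cish* than WT replicate 2, but more *Socs2*. With 4 livers no correlation was computed. Differences of at least 2-fold between the KO livers on the log2(TPM + 1) scale occurred in 3 of 10 members, these same 3, and in 6.57% of all tested genes. Between the WT livers they occurred in 2 members, *Bcl6* and *Igfbp2*, and in 5.06% of all tested genes.

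**Figure D3:**
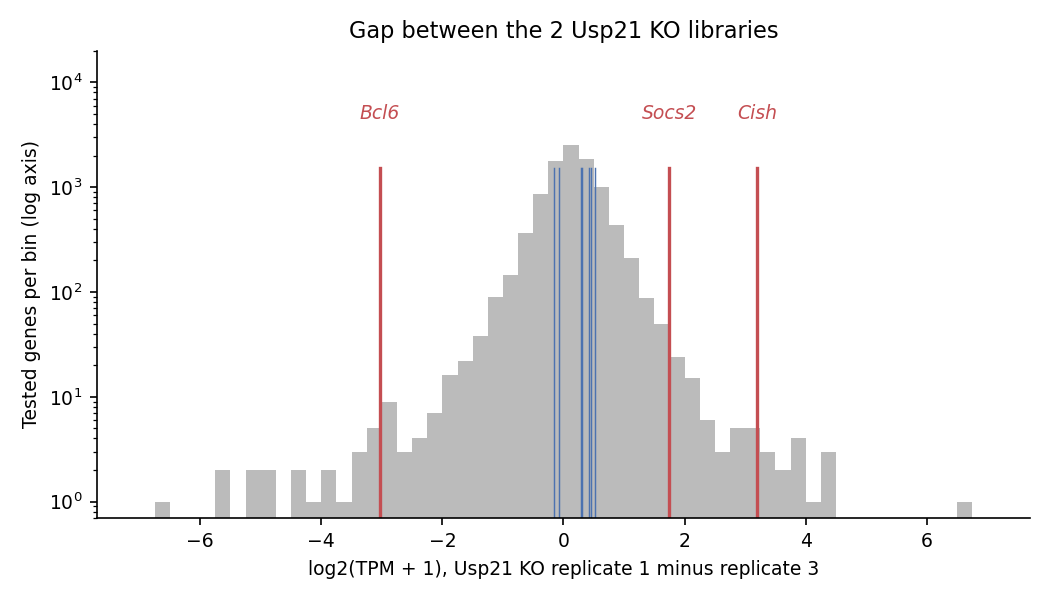
Difference in log2(TPM + 1) between KO replicates 1 and 3 for all 9581 tested genes (grey bars, gene counts on a log axis), with *Bcl6*, *Socs2* and *Cish* as labelled red lines and the other 7 members as thin blue lines. The 3 labelled genes lie in the sparse tails, at -3.04, 1.75 and 3.20, and the other members lie near the centre.

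Other genes also differed between the KO livers, and their values are given beside *Cish*, *Socs2* and *Bcl6*. All 6 Kupffer cell markers were higher in KO replicate 3 than in KO replicate 1, 4 of them by at least 2-fold. A gap of that size, in either direction, occurred in 6.57% of all tested genes. The markers' summed level was 51.6 TPM in KO replicate 1 and 135 TPM in KO replicate 3, with 88.5 and 100 TPM in the WT livers. *G6pc1*, a gluconeogenic enzyme that fasting induces, was at 56.4 and 172.8 TPM in KO replicates 1 and 3, and at 22.4 and 31.6 TPM in the WT livers. Among the fasting genes, 7 of the 9 tested were higher in KO replicate 3 than in KO replicate 1. Over all tested genes the gap leaned the other way. On the log2(TPM + 1) scale, 1781 genes were higher by up to 0.25 in KO replicate 3, and 2503 were equal or higher by up to 0.25 in KO replicate 1. For gaps of 0.25 to 0.5 the numbers were 869 and 1858 genes, and for gaps of 1 to 1.25 they were 89 and 209. The part of macrophage content, feeding state or time of collection in the gap was not tested.

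*Igf1* (ENSMUSG00000020053, chr10:87858265-87937042, + strand), the endocrine product of the axis, was measured at 397 and 411 TPM in WT livers and at 572 and 460 TPM in KO livers. The means were 404 ± 9.65 and 516 ± 79.1 TPM (SD, n = 2), and every KO value lay above every WT value. The log2 fold change was 0.35 (SE 0.186, limma adjusted p = 0.524, 95% interval -0.12 to 0.81). Leaving out 1 library at a time gave values from 0.19 to 0.50. KO replicate 3, in which *Cish* was at about 2 reads, did not have the lowest *Igf1*.

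*Igfals* (ENSMUSG00000046070, chr17:24865997-24882010, + strand), the gene of the acid-labile subunit, was at 47.8 and 40.9 TPM in WT livers and at 43.2 and 29.7 TPM in KO livers. The groups overlapped, and KO replicate 3 was the lowest. The log2 fold change was -0.30 (SE 0.235, limma adjusted p = 0.645, 95% interval -0.88 to 0.29), and with upper quartile scaling it was -0.43, with both KO livers below both WT livers. The TPM of *Igf1* was 8.30 and 10.03 times that of *Igfals* in WT livers and 13.2 and 15.5 times in KO livers, so the ratio was higher in both KO livers.

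*Igfbp4* (ENSMUSG00000017493, chr11:99041244-99054392, + strand) encodes a binding protein that inhibits IGF action. It was at 693 and 659 TPM in WT livers and at 514 and 540 TPM in KO livers. The means were 676 ± 23.6 and 527 ± 18.1 TPM (SD, n = 2), the genotypes did not overlap, and the libraries within each genotype were 1.05-fold apart. The log2 fold change was -0.36 (SE 0.166, limma unadjusted p = 0.0772, adjusted p = 0.496, 95% interval -0.77 to 0.05). It was the member with the smallest unadjusted p. That p was 0.0247 with upper quartile scaling, where the log2 fold change was -0.49, and 0.0188 without sharing variances between genes.

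*Igfbp2* (ENSMUSG00000039323, chr1:72824503-72852474, + strand), the binding protein that rises in liver when growth hormone action is low, was at 608 and 298 TPM in WT livers and at 511 and 374 TPM in KO livers. The WT livers spanned the KO livers, and they were 2.04-fold apart. The log2 fold change was 0.04 (SE 0.370, limma adjusted p = 0.977, 95% interval -0.88 to 0.96), and its sign changed with upper quartile scaling (-0.10).

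**Figure D4:**
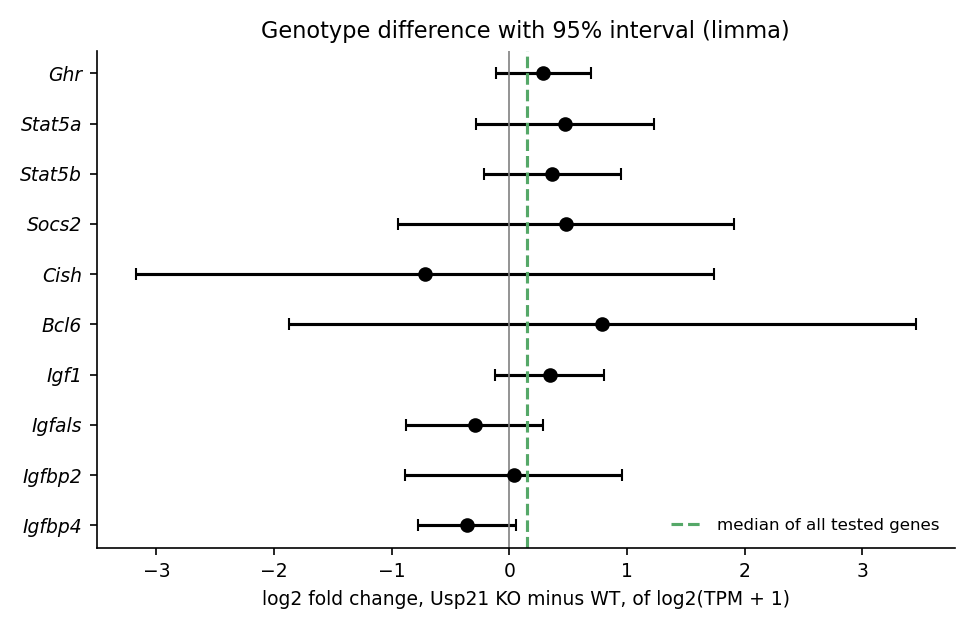
Difference between *Usp21* KO and WT livers in log2(TPM + 1) for each member (points) with the 95% interval from limma (bars). All 10 intervals include 0 (grey line), and the dashed green line marks the median of all tested genes, 0.15.

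In WT livers the order of the mean levels, which TPM allows to be compared between genes, was *Igfbp4* (676 TPM), *Igfbp2* (453), *Igf1* (404), *Ghr* (201), *Igfals* (44.4), *Socs2* (9.98), *Stat5b* (5.89), *Cish* (4.87), *Bcl6* (2.97) and *Stat5a* (0.895). Of these neighbours, *Igfbp2* and *Igf1*, *Stat5b* and *Cish*, *Cish* and *Bcl6*, and *Bcl6* and *Stat5a* had overlapping WT values. In KO livers *Igf1* (516 TPM) came second after *Igfbp4* (527 TPM), and their values overlapped. *Igfbp4* was 1.75 and 1.61 times *Igf1* in TPM in WT livers, and 0.899 and 1.17 times in KO livers.

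The genes whose pattern over the 4 libraries was most like that of *Igf1*, by the root mean square difference in log2(TPM + 1) centred on each gene's mean, were *Zbtb7b* (0.0104), *Hdhd2* (0.0168) and *Rassf3* (0.0195), among 4024 other genes whose mean reached 10 TPM. For *Ghr* they were *Cdv3* (0.0125), *Pkp4* (0.0216) and *Amd1* (0.0242). With 4 libraries, this is a description only.

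Of 18 genes of growth hormone receptor signalling (the kinase, phosphatases, adaptors, SOCS proteins and related receptors), 15 passed the filter and 0 passed the adjusted threshold. With unadjusted p under 0.05, 3 were higher and 1 was lower in KO livers, beside 10.5% of all tested genes, of which 80.6% were higher (56.0% with upper quartile scaling). The median log2 fold change was 0.02, which became -0.09 with upper quartile scaling. *Jak2*, the kinase of the receptor, was at 1.62 and 1.77 TPM in WT and at 2.62 and 2.91 TPM in KO livers (log2 fold change 0.48, limma adjusted p = 0.516). *Stat3*, which cytokine receptors activate, was at 9.20 and 13.2 TPM in WT and at 18.9 and 18.6 TPM in KO livers (log2 fold change 0.71, SE 0.232, limma adjusted p = 0.464). *Prlr*, the prolactin receptor, was at 33.9 and 25.9 TPM in WT and at 20.1 and 12.5 TPM in KO livers (log2 fold change -0.86, SE 0.283, limma adjusted p = 0.464). *Egfr*, a receptor whose liver level depends on growth hormone, was at 44.6 and 51.8 TPM in WT and at 73.0 and 65.0 TPM in KO livers (log2 fold change 0.51, limma adjusted p = 0.464). For each of these genes the genotypes did not overlap. Over the whole list, 5 of the 15 genes were higher in both KO livers and 2 were lower in both, with 8 overlapping. These numbers stand beside 34.4% and 10.9% of all tested genes. *Socs3*, a SOCS gene that cytokines induce, did not follow *Socs2*: it was at 1.80 and 14.96 TPM in WT and at 4.72 and 1.33 TPM in KO livers.

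Of 16 further genes of the IGF system, 7 passed the filter and 4 (*Igf2*, *Pappa*, *Pappa2* and *Stc1*) were listed at 0 in every library. None passed the adjusted threshold, and the median log2 fold change of the 7 was 0.75. With unadjusted p under 0.05, 4 were higher and 0 were lower in KO livers, beside the same 10.5% and 80.6% over all tested genes. *Insr*, the insulin receptor, was at 4.73 and 5.60 TPM in WT and at 10.2 and 8.56 TPM in KO livers (log2 fold change 0.75, SE 0.226, limma adjusted p = 0.464). Its adaptors were also higher in both KO livers, *Irs1* at 1.01 and 0.806 TPM against 2.19 and 2.22 TPM, and *Irs2* at 1.08 and 0.656 TPM against 2.16 and 3.09 TPM. Both passed the filter of 1 TPM through their KO libraries, since their WT means were 0.907 and 0.868 TPM, and they are 2 of the 4 genes counted. *Igfbp1*, a binding protein that insulin represses, was at 6.28 and 18.4 TPM in WT and at 21.5 and 42.3 TPM in KO livers (log2 fold change 1.39, SE 0.537, limma adjusted p = 0.472). *Igf1r*, the receptor of IGF1, was between 0.042 TPM (KO replicate 3) and 0.593 TPM (KO replicate 1). It was under the filter, so it was not tested in the main fit. With no filter its log2 fold change was 0.26 (limma adjusted p = 0.718).

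**Figure D5:**
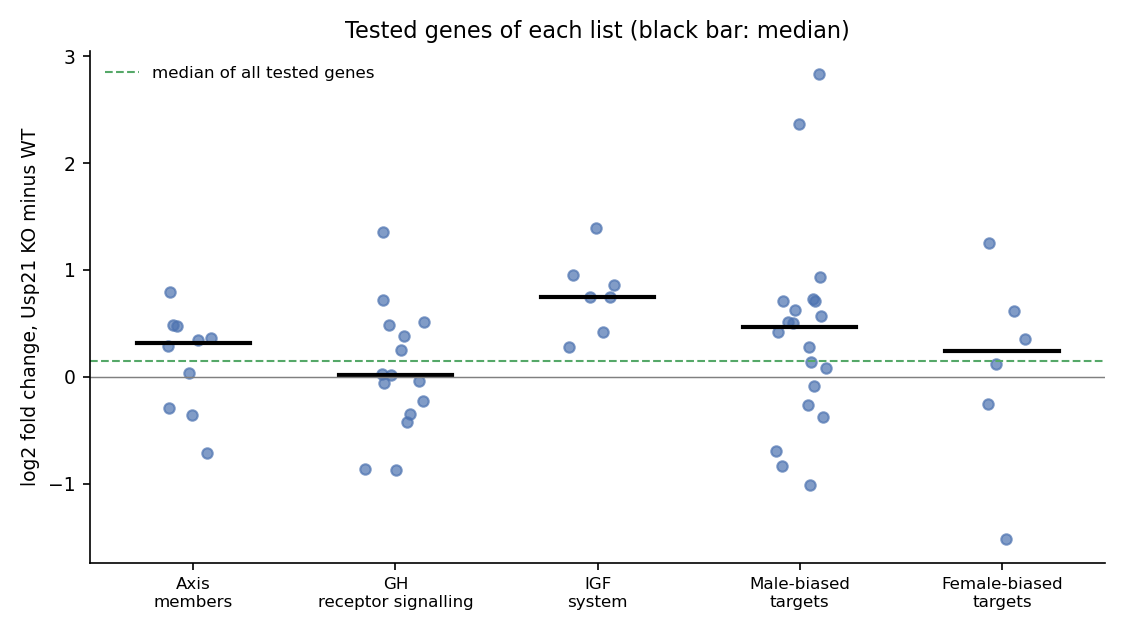
Log2 fold change (*Usp21* KO minus WT) of each tested gene of the axis and of 4 related lists (points spread sideways for visibility), with the median of each list as a black bar. The medians of the members (0.32), receptor signalling (0.02), IGF system (0.75), male-biased (0.46) and female-biased targets (0.24) stand beside the median of all tested genes (dashed, 0.15).

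The sex-biased liver genes that depend on the pattern of growth hormone and on STAT5B were examined next. The Y-linked genes *Ddx3y* (7.14 and 11.9 TPM in WT, 20.5 and 11.8 TPM in KO livers), *Eif2s3y* (11.9 and 17.2 TPM in WT, 24.4 and 17.9 TPM in KO livers), *Kdm5d* and *Uty* were above 0 in every library, and the last pair stood between 1.03 and 3.03 TPM. Every library thus held RNA from male liver. All 20 male-biased targets passed the filter, 0 passed the adjusted threshold, and 6 had an unadjusted p under 0.05. These 6 were higher in KO livers, beside 10.5% of all tested genes with such a p, of which 80.6% were higher (56.0% with upper quartile scaling). Their median log2 fold change was 0.46. *Ugt2b38*, a glucuronosyltransferase, was at 3.96 and 6.36 TPM in WT and at 32.5 and 28.05 TPM in KO livers (log2 fold change 2.37, SE 0.260, limma adjusted p = 0.1002). *Cyp7b1*, an oxysterol hydroxylase, was at 100 and 70.3 TPM in WT and at 149 and 174 TPM in KO livers (log2 fold change 0.94, limma adjusted p = 0.458). *Cyp4a12a*, a fatty acid hydroxylase, was at 102 and 96.6 TPM in WT and at 186 and 147 TPM in KO livers (log2 fold change 0.73, limma adjusted p = 0.464). *Mup1*, a major urinary protein gene, was at 503 TPM in KO replicate 1 and 3045 TPM in KO replicate 3, with 2141 and 2922 TPM in WT livers. Its KO livers were 6.05-fold apart, the widest gap of the listed *Mup* genes. The KO gap was 3.37-fold for *Mup7*, 1.92-fold for *Mup11*, 1.38-fold for *Mup3* and 1.22-fold for *Mup20*, each higher in KO replicate 3. The *Mup*, *Cyp4a12* and *Ugt2b* genes have near-identical copies, so their single-gene values are uncertain.

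Of 22 female-biased targets only 6 passed the filter, and 3 were listed at 0 in every library. With unadjusted p under 0.05, 1 was higher and 1 was lower in KO livers, beside 10.5% of all tested genes with such a p. The median log2 fold change was 0.24, and it ranged from -0.07 without WT replicate 3 to 0.59 without WT replicate 2. It was -0.07 with no filter and 0.69 over genes with a mean of 5 TPM or more, so neither its sign nor its size was stable. *Cyp2c40* was at 6.12 and 1.84 TPM in WT and at 12.4 and 7.59 TPM in KO livers (log2 fold change 1.25, limma adjusted p = 0.472). *Acot3*, an acyl-CoA thioesterase, was at 3.06 and 4.77 TPM in WT and at 0.107 and 1.56 TPM in KO livers (log2 fold change -1.52, limma adjusted p = 0.464). It is the lower gene counted, and it passed the filter through its WT libraries, since its KO mean was 0.832 TPM. *Cyp2b10* was at 2.20 and 1.46 TPM in WT and at 4.44 and 2.41 TPM in KO livers (log2 fold change 0.62, limma adjusted p = 0.524). These cytochromes P450 also belong to families of close copies.

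Facts of the libraries as a whole bear on these values. *Usp21* was at 4.07 and 6.29 TPM in WT and at 1.64 and 2.93 TPM in KO livers (log2 fold change -0.92, SE 0.328, limma unadjusted p = 0.0336, adjusted p = 0.464), and a TPM over the whole gene does not read the deleted exons alone. The libraries had between 12876 and 13620 genes above 0 TPM, and the 10 most abundant genes held 25.7% to 30.7% of all TPM. Hepatocyte markers summed to 49823 to 72585 TPM, and no lymphocyte marker exceeded 1.62 TPM. Sinusoidal endothelial markers summed to 44.5 to 68.1 TPM, stellate cell markers to 87.8 to 174 TPM and red blood cell markers to 437 to 598 TPM. Cholangiocyte markers summed to 14.6 and 15.9 TPM in WT and to 37.9 and 24.5 TPM in KO livers, so both KO livers were above both WT livers, mostly through *Spp1* (13.2 and 12.7 TPM in WT, 33.4 and 20.7 TPM in KO livers, limma unadjusted p = 0.0120, adjusted p = 0.464). Their part in the differences of the axis was not tested. The clock gene *Dbp*, whose transcript cycles over the day, was at 56.8 and 41.3 TPM in WT and at 4.73 and 4.97 TPM in KO livers (log2 fold change -3.08, limma adjusted p = 0.0193). *Ciart*, another clock gene, was at 5.70 and 5.61 TPM in WT and at 0.301 and 0.194 TPM in KO livers, and the KO values of both genes were close together. *Lpin1*, which fasting induces, was at 10.3 and 23.1 TPM in WT and at 52.5 and 54.8 TPM in KO livers. Time of collection and genotype cannot be told apart for the members.

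A choice of scaling touched the direction of small differences. With the libraries scaled to an equal upper quartile, the median over all tested genes moved from 0.15 to 0.04, and the share of genes with an unadjusted p under 0.05 that were higher in KO livers went from 80.6% to 56.0%. Under that scaling 3 members (*Stat5a*, *Stat5b* and *Igf1*) were higher and 2 (*Igfals* and *Igfbp4*) were lower in both KO livers. The share of tested genes higher in both KO livers was then 24.5%, and the share lower in both was 18.6%.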

How the data were processed

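The authors sequenced liver RNA on an Illumina MiSeq. They estimated transcript abundance with salmon (build mm10) and deposited TPM per Ensembl gene for 35739 genes. The authors also deposited a count-based signal, HTSeq gene counts scaled with edgeR's TMM (CPM), for 55335 genes. Tools are named in the submitters' processing notes, and their versions are not given in the sources used here. Log2 copies of both tables were not used. Genotype and replicate came from the labels.

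TPM was the main unit because the CPM table listed *Gapdh* and 7 of the 10 members at 0. The 9581 genes whose mean reached 1 TPM were tested on log2(TPM + 1) with limma 3.58.1 in R 4.3.3 (eBayes with a trend, two-sided, Benjamini-Hochberg). With 3.62 prior degrees of freedom, each p draws largely on variances pooled over genes. Intervals are at 95%. The CPM values are whole multiples of 1 read (100% whole within 0.02 reads), which gave 148164 and 110427 reads in WT and 145306 and 102898 in KO libraries. No member had more than 5 of these reads in a library.

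The TPM of 1 read was estimated from genes with 1 coding transcript of over 1000 bases, assuming fragments of 200 bases, and is 0.100 to 0.134 TPM at 2000 bases. This estimate, and the read numbers it gives with the longest coding transcript, were added after the data were seen. Shared sequence was counted over GENCODE M21 transcripts in stretches of 31 bases. Symbols absent from the table were matched by Ensembl ID, and *Xist* was not analysed here. The STAT5A and STAT5B proteins were not compared.

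The members and lists were chosen with earlier results of these data known. Genes were named if they were members, *Usp21* or sex genes, had the 3 smallest unadjusted p-values of a pathway list or the 2 smallest of the clock or fasting lists, or were the 3 most like *Ghr* or *Igf1*. *Jak2*, *Socs3*, *Igfbp1*, *Igf1r*, the *Mup* genes, *Spp1* and the genes listed at 0 were named after their values were seen. Alternatives were pseudocounts of 0.1 and 5, no filter, a mean of 5 TPM or more, upper quartile scaling, no moderation, the CPM, edgeR 4.0.16 and DESeq2 1.42.0 on the recovered reads, and each library left out. The scripts were tested on simulated data.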

Additional observations from a re-analysis of the deposited data

How the results depend on the processing

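No member passed the adjusted threshold under any alternative that kept every library. Of the 107 alternative log2 fold changes of single members, 96 kept their direction. That count includes the runs with no filter, a higher filter and no moderation, whose log2 fold changes could not differ from the main ones. The number of members with an unadjusted p under 0.05 was 1 (*Igfbp4*) with upper quartile scaling, beside 879 of all 9581 tested genes. It was also 1 (*Igfbp4*) with no moderation, beside 806 of them. Changes of 2-fold or more were seen in 1 member with a pseudocount of 0.1, 2 with CPM, 1 with edgeR and 1 with DESeq2, and 0 to 2 with a library left out. The members' median log2 fold change (0.32) was 0.00066 to 0.38 with a library left out. It was 1.22 with CPM, -0.092 with edgeR and -0.13 with DESeq2, each over the 3 members with a recovered read. In the order WT 2, WT 3, KO 1 and KO 3, *Igfbp4* had 5, 0, 3 and 1 recovered reads. The TPM gave about 13944, 10134, 9796 and 8143 reads for it. With so few recovered reads, the CPM, edgeR and DESeq2 fits cannot decide the size or direction of a member's difference. The median of the IGF system list (0.75) was 1.05 with a pseudocount of 0.1, 0.38 with a pseudocount of 5 and 0.50 with no filter, where 12 genes entered.

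Directions changed for *Igfbp2* with upper quartile scaling (-0.10), for *Igfbp4* with CPM (1.22, from at most 5 reads a library) and for *Bcl6* with CPM (-0.088), edgeR (-0.092) and DESeq2 (-0.13), from at most 1 read a library. Leaving out 1 library gave -0.47 to 0.55 for *Igfbp2*, -0.39 to 1.35 for *Socs2*, -2.32 to 0.88 for *Cish* and -0.73 to 2.31 for *Bcl6*. For *Usp21* it gave -1.20 to -0.63. The lone library of a genotype was then assumed to vary like the pair of the other genotype. The gap of *Cish* between the KO livers (3.20) was 5.19 with a pseudocount of 0.1 and 1.51 with 5, alternatives chosen after seeing the data.

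Over all genes, the calls at an adjusted p under 0.05 (8) were 12 with edgeR, 1 with DESeq2, 1 with CPM, 4 with no filter, and 0 with no moderation or with any library left out. The genes changed at least 2-fold (353) were 820 and 115 with pseudocounts of 0.1 and 5, 203 at a mean of at least 5 TPM, 463 to 695 with a library left out, and 3134, 2915 and 3018 of 5146 with CPM, edgeR and DESeq2. Genes with an unadjusted p under 0.05 (1005) were 639 at a mean of at least 5 TPM, 542 to 1188 with a library left out, and 213, 168 and 21 with CPM, edgeR and DESeq2. The filter and the CPM table change how many genes enter, and the other causes were not tested. No paired analysis was possible because the genotypes share only replicate number 3, and the labels give no pairing.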
